A study of Homo sapiens with 8 samples.

Results

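The 10 genes described here are members of families listed as mitotic kinases: the Aurora kinases AURKA and AURKB, the Polo-like kinases PLK1, PLK2, PLK3 and PLK4, the spindle checkpoint kinases TTK, BUB1 and BUB1B, and the centrosomal kinase NEK2. They were chosen by gene symbol, as a family list, out of 58302 genes in the files. Each symbol matched 1 gene, and all 10 were among the 17676 genes with enough counts to test. The cells were A549, an established human lung adenocarcinoma line, and RNA sequencing libraries were made from 4 groups, with 2 libraries each that the labels call biological replicates. One pair of groups carried short hairpin RNAs (shRNAs), either a control hairpin or one against the receptor tyrosine kinase AXL. The other pair was control cells without a hairpin named in their label and cells given 40 nM TP-0903, a small-molecule AXL inhibitor for which inhibition of Aurora kinases has also been described. The sources used here do not state the vector or sequence of a hairpin, the number of clones, what control cells were given or for how long cells were treated. The series asked which pathways could carry resistance to TP-0903. A number after the letter P stands in each label: P15 and P3 occur in both hairpin groups, and P17 and P4 occur in control and TP-0903 cells. Its meaning is not stated.

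Entry into mitosis depends on cyclin-dependent kinase 1, and the Aurora and Polo-like kinases then act on centrosomes, spindle and kinetochores. AURKA works at centrosomes and spindle poles, and AURKB is the enzyme of the chromosomal passenger complex at the inner centromere. PLK1 acts from mitotic entry to cytokinesis, PLK4 starts centriole duplication, and TTK, BUB1 and BUB1B hold back anaphase until chromosomes are attached. Transcripts of most of these genes are made periodically and peak in G2 and M phase, so in a bulk sample their level also depends on how many cells are dividing. PLK2 and PLK3 share the Polo domain layout but are known as genes induced by serum and stress rather than as mitotic drivers. In these bulk libraries, fewer cells with a transcript and less of the transcript per cell cannot be told apart.

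Library totals ran from 30067011 to 44217023 expected counts, and mitochondrially encoded genes took 3.58% to 7.78% of them. The epithelial keratin KRT18 lay between 2036 and 7180 counts-per-million (CPM) of total counts, the lung lineage factor NKX2-1 at 0.25 CPM or less, and the leukocyte marker PTPRC at 0.0606 CPM or less. The mitochondrial share differed between groups: it was 3.58% and 3.68% in control libraries, 3.94% and 5.17% with control shRNA, 5.16% and 5.82% with TP-0903, and 6.79% and 7.78% with AXL shRNA. AXL, the target of the hairpin, is given, as are all genes that follow, in CPM after scaling of library sizes. Control shRNA libraries held 85.1 (P15) and 139 CPM (P3), and AXL shRNA libraries 55.4 and 63.0 CPM, without overlap. The log2 fold change was -0.92 (SE 0.42), with an adjusted p of 0.12 in edgeR's quasi-likelihood test and of 8.58e-04 where the P number was a block. Errors after ± are SDs of the 2 libraries of a group, and a gene was called where its adjusted p over all tested genes was under 0.05. Whether libraries of 1 group came from separate cultures beyond the label of biological replicates is not stated, so p-values measure the spread between these libraries.

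Of the 10 kinases, 8 were far more abundant in plain control cells than in any other group. PLK1, PLK4, AURKA, AURKB, NEK2, TTK, BUB1 and BUB1B had log2 fold changes of -3.37 to -2.25 with TP-0903 and of -3.89 to -2.67 from control to control shRNA. PLK2 and PLK3 did not follow them. The plot of CPM by library shows both patterns.

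**Figure D1:**
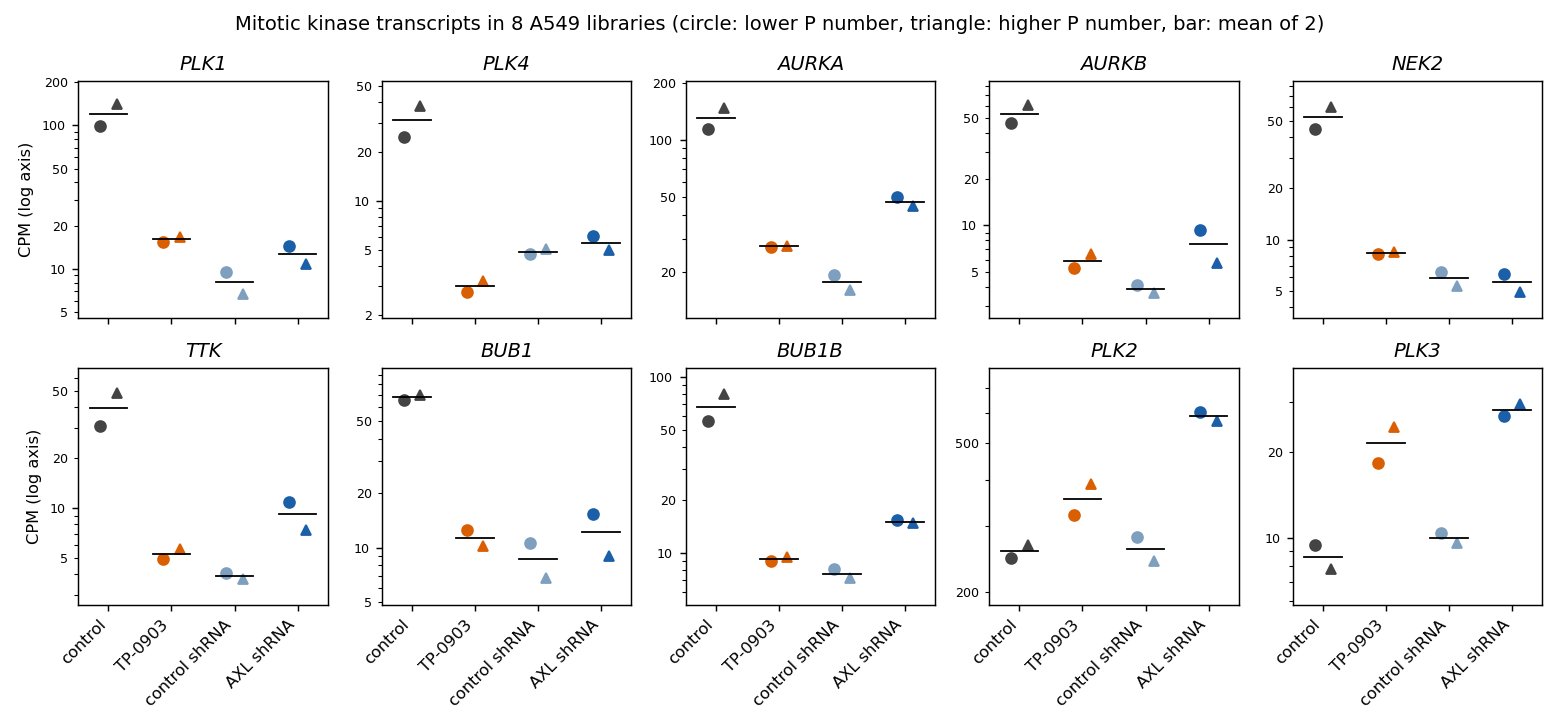
CPM on a log axis for each of the 10 kinases in the 8 libraries, with a circle for the lower and a triangle for the higher P number of a group and a bar at the mean of 2. In the first 8 panels both control libraries lie above the other 6; PLK2 and PLK3 are highest in AXL shRNA cells, at 589 and 28.3 CPM.

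PLK1 (plus strand of chromosome 16, 23677656 to 23690367, GRCh38) showed the widest gap between control cells and the hairpin groups. It stood at 139.8 (P17) and 99.6 CPM (P4) in control cells, at 16.7 and 15.5 CPM with TP-0903, 6.64 (P15) and 9.55 CPM (P3) in control shRNA libraries, and 10.8 and 14.4 CPM in AXL shRNA libraries. Both control libraries were high and the other 6 were low, with no overlap. The fall was 14.8-fold from control to control shRNA (log2 fold change -3.89, SE 0.26, adjusted p = 7.33e-04, edgeR) and 7.45-fold from control to TP-0903 (-2.90, SE 0.25, adjusted p = 7.96e-04). Among all tested genes PLK1 ranked 26 from the lowest in the first of these comparisons.

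The licensing kinase of centriole duplication, PLK4 (plus strand of chromosome 4, 127880861 to 127899195), had another order. Its values were 37.8 (P17) and 24.4 CPM (P4) in control cells, 3.24 and 2.75 CPM with TP-0903, 5.04 (P15) and 4.73 CPM (P3) for control shRNA, and 5.01 and 6.09 CPM with AXL shRNA. The lowest libraries for this gene were those of TP-0903, whereas for the other 7 of these kinases the lowest mean was in a hairpin group. PLK4 had the largest fall of the 10 with TP-0903, at -3.37 (SE 0.26, adjusted p = 6.5e-04, edgeR), and the smallest of the 8 from control to control shRNA, at -2.67 (SE 0.25, adjusted p = 0.00153). Control shRNA minus TP-0903 gave 0.70 (SE 0.25, adjusted p = 0.0896), so that difference did not pass the test. It passed without the filter (adjusted p = 0.0378).

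PLK1, PLK4, AURKB, BUB1, BUB1B and NEK2 are shown here with the 90 bases around a RefSeq transcription start (80 before and 10 after, GRCh38.p14), because they fell together and because genes that peak in G2 and M often carry a cell cycle homology region (CHR) and CCAAT boxes there. Capitals mark TTTGAA or TTCGAA, forms of the CHR, and CCAAT, on either strand (a CCAAT on the other strand reads ATTGG). Also in capitals are the core motif bound by CREB-type factors, TGACG, and the TATA box sequence TATAA, likewise on either strand, so that the capitals of PLK4 are a TGACG of the other strand. PLK2 and PLK3 follow as the pair that moved otherwise. For PLK4 (3 starts) and AURKB (2 overlapping windows) the start with the lowest coordinate is shown. AURKB is on the minus strand, so its start shown is the more downstream of the 2, inside a gene that reaches to 8210600. The stretch of AURKB holds none of the 5 sequences, and that of PLK4 holds neither a CHR form nor CCAAT. AURKA and TTK have no entry in the table used.
PLK1 (chr16:23678809-23678898, plus strand): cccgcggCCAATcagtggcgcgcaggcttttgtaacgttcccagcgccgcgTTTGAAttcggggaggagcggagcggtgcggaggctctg
PLK4 (chr4:127880813-127880902, plus strand): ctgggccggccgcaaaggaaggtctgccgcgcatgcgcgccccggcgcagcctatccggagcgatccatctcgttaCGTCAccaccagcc
AURKB (chr17:8210216-8210305, minus strand): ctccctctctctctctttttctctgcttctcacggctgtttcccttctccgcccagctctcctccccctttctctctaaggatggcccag
BUB1 (chr2:110678054-110678143, minus strand): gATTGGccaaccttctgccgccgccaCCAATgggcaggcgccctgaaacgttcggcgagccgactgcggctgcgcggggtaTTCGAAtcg
BUB1B (chr15:40160989-40161078, plus strand): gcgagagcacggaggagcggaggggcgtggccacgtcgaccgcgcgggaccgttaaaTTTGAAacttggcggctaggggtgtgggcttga
NEK2 (chr1:211675612-211675701, minus strand): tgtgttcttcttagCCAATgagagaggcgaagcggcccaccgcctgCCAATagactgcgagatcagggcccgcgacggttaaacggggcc
PLK2 (chr5:58460077-58460166, minus strand): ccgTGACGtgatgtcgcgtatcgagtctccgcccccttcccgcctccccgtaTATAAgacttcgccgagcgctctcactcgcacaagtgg
PLK3 (chr1:44800297-44800386, plus strand): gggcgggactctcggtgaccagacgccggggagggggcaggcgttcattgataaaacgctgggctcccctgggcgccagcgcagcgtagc
In the full windows of 300 bases (250 before and 50 after a start), 8 of the 10 kinases had an entry, with 11 windows in all. A TTTGAA or TTCGAA lay in 4 of these 11 windows (36.4%), of PLK1, PLK4, BUB1 and BUB1B, beside 16.35% of all 35116 windows. CCAAT lay in 6 of the 11 (54.5%), of AURKB (the same site in both windows), PLK1, PLK4, BUB1 and NEK2, beside 34.6% of all windows. TTTGAA starts 29 bases before the start of PLK1 and 23 bases before that of BUB1B, the TTCGAA of BUB1 starts at base 2 of the transcript, and the TTTGAA of PLK4 at base 39. The CCAAT that the 2 overlapping windows of AURKB share begins 153 bases before the one start and 129 bases before the other. The windows of PLK2 and PLK3 held neither. That of PLK2 held TGACG 77 bases and TATAA 28 bases before the start, found in 24.6% and 20.4% of all windows. TGACG also lay in a window of PLK4, 4 bases before its start. The window of PLK3 held none of the 5 sequences searched. These matches describe letters and not bound sites.

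The Aurora kinases moved alike in direction and differed in size. AURKA lies on the minus strand of chromosome 20, at 56369389 to 56392337 (GRCh38), and stood at 146 (P17) and 114 CPM (P4) in control cells, 27.6 and 27.0 CPM with TP-0903, 16.0 (P15) and 19.3 CPM (P3) for control shRNA, and 44.4 and 49.7 CPM with AXL shRNA. Its 4 groups did not overlap, in the order control, AXL shRNA, TP-0903, control shRNA, and each of the neighbouring differences passed the test. The fall with TP-0903 was 4.76-fold (log2 fold change -2.25, SE 0.16, adjusted p = 5.62e-04, edgeR), the smallest of the 8. AURKB (minus strand of chromosome 17, 8204733 to 8210600) stood at 60.2 and 46.2 CPM in control cells and at 6.51 and 5.27 CPM with TP-0903, a 9.02-fold fall (-3.17, SE 0.28, adjusted p = 8.67e-04). It stood at 3.63 and 4.10 CPM with control shRNA and 5.68 (P15) and 9.39 CPM (P3) with AXL shRNA. The AXL shRNA range held 1 of the TP-0903 libraries, and AXL shRNA minus TP-0903 was 0.36 (SE 0.26, adjusted p = 0.34).

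The deposited TPM values, which correct for transcript length, can be compared between genes of a library. The TPM of AURKA was 1.15 (P17) and 1.20 times (P4) that of AURKB in control cells, 1.80 and 2.48 times with TP-0903, 2.32 (P15) and 2.36 times (P3) with control shRNA, and 4.16 and 2.63 times with AXL shRNA. The ratio was nearest to equal in the control libraries and above that in the other 6.

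The 3 checkpoint kinases fell together. TTK lies on chromosome 6 (80003887 to 80042527, plus strand), BUB1 on chromosome 2 (110637698 to 110678114, minus strand) and BUB1B on chromosome 15 (40161023 to 40221136, plus strand). TTK, which phosphorylates the kinetochore to start checkpoint signalling, stood at 48.5 (P17) and 30.9 CPM (P4) in control cells, 5.68 and 4.98 CPM with TP-0903, 3.75 (P15) and 4.10 CPM (P3) for control shRNA, and 7.43 and 10.9 CPM with AXL shRNA. Its control libraries were high and did not overlap the rest. BUB1, a kinase that marks centromeric histone H2A, stood at 70.1 and 65.5 CPM in control cells, 10.2 and 12.6 CPM with TP-0903, 6.83 and 10.6 CPM with control shRNA, and 9.06 and 15.3 CPM with AXL shRNA. Below control, the ranges of BUB1 in the other 3 groups overlapped one another. BUB1B, whose product BUBR1 binds and inhibits the anaphase-promoting complex, stood at 79.98 and 56.1 CPM in control cells, 9.47 and 8.96 CPM with TP-0903, 7.13 and 8.05 CPM with control shRNA, and 14.8 and 15.3 CPM with AXL shRNA. From control to TP-0903 the log2 fold changes were -2.90 for TTK (SE 0.28, adjusted p = 0.00126), -2.57 for BUB1 (SE 0.30, adjusted p = 0.00283) and -2.88 for BUB1B (SE 0.19, adjusted p = 4.95e-04) in edgeR's test. From control to control shRNA they were -3.34 (SE 0.29, adjusted p = 0.00104), -2.96 (SE 0.31, adjusted p = 0.00204) and -3.16 (SE 0.19, adjusted p = 7.33e-04). BUB1B and BUB1 had near-equal TPM in most libraries: their ratio ran from 0.742 in TP-0903 P4 to 1.13 in control P17, with 1.97 in AXL shRNA P15 outside that range.

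NEK2 (minus strand of chromosome 1, 211658657 to 211675630), a kinase that helps split the centrosomes before mitosis, stood at 60.3 (P17) and 44.6 CPM (P4) in control cells, 8.46 and 8.26 CPM with TP-0903, 5.35 (P15) and 6.46 CPM (P3) for control shRNA, and 4.92 and 6.28 CPM with AXL shRNA. Both hairpin groups overlapped, and both lay under TP-0903. The log2 fold change of NEK2 was -2.65 (SE 0.21, adjusted p = 6.65e-04, edgeR) with TP-0903 and -3.15 (SE 0.22, adjusted p = 7.33e-04) from control to control shRNA. AXL shRNA minus TP-0903 gave -0.58 (SE 0.21, adjusted p = 0.0724). That difference passed on total counts (adjusted p = 0.043), without the filter (0.0319) and on log2 TPM with pseudocounts of 1 (0.0496) and 0.1 (0.0378).

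**Figure D2:**
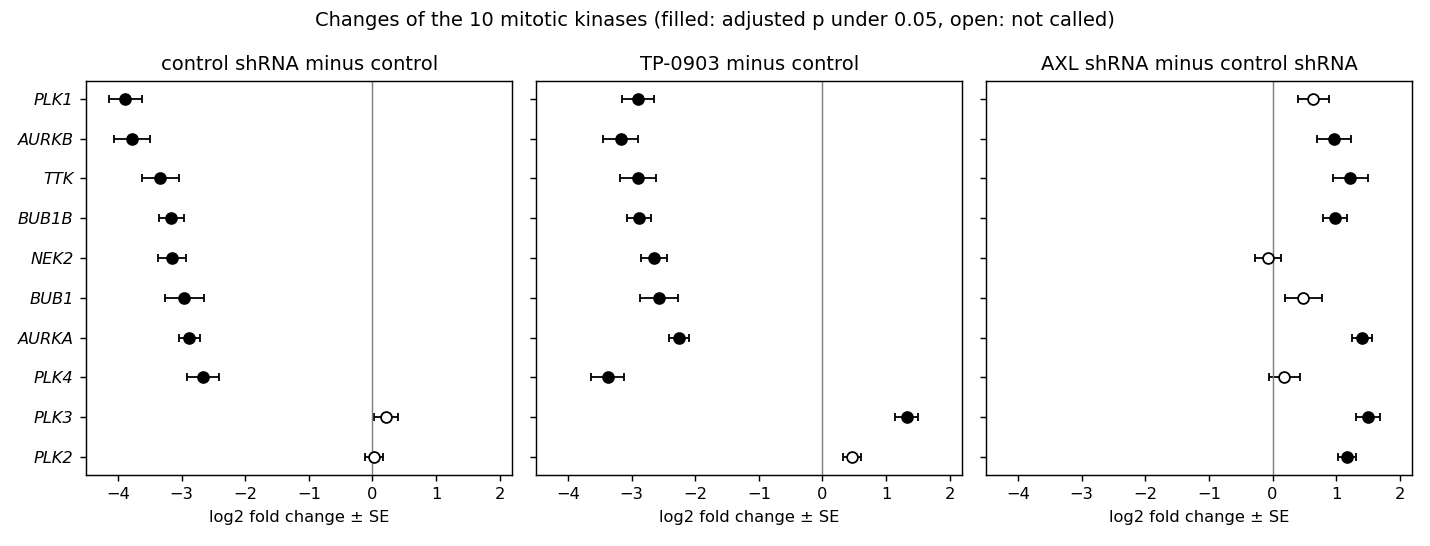
Log2 fold changes with SE for the 10 kinases in 3 comparisons, from 1 fit of all 8 libraries; filled points passed the test. The first 8 kinases lie between -3.89 and -2.25 in the left and middle panels, and at -0.07 to 1.41 in the right panel.

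TP-0903 and control shRNA were set against the same control libraries, so their falls are not independent of each other. With TP-0903, 8 of the 10 kinases were lower, against 6.35% of all tested genes, and 1 was higher (PLK3), against 4.9%. With PLK2, 2 were higher at an unadjusted p under 0.05 and in DESeq2, and 1 was higher in limma-voom. From control to control shRNA, 8 were lower, against 6.09%, and 0 were higher, against 3.06% (also 0 at an unadjusted p under 0.05, in DESeq2 and in limma-voom). The median of the 10 was -2.77 with TP-0903 and -3.05 for control shRNA, with medians of -0.015 and 0.019 over all tested genes. From control to AXL shRNA, 8 were lower, against 19.5% of all genes, and 2 were higher (PLK2 and PLK3), against 17.3%, with the 8 lower values running from -3.25 for PLK1 to -1.46 for AURKA. All of the falls kept their call when any 1 library was left out. The hairpin cultures share no P number with the plain cultures, so carrying a hairpin and the P number, or any other difference between both sets of cultures, cannot be told apart.

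In libraries paired by P number the drop with TP-0903 was deeper at P17 than at P4 in each of the 8 kinases. What was left of the control level ran from 8.57% (PLK4) to 18.9% (AURKA) at P17 and from 11.3% (PLK4) to 23.8% (AURKA) at P4. For PLK1 it was 11.9% and 15.5%, for AURKB 10.8% and 11.4%, for TTK 11.7% and 16.1%, for BUB1 14.6% and 19.2%, for BUB1B 11.8% and 16.0%, and for NEK2 14.0% and 18.5%. Control P17 was also the higher of both control libraries for these 8 genes. The difference between P17 and P4 was not tested.

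Against their own control hairpin, AXL shRNA cells held more of 6 kinases, against 18.5% of all tested genes higher, and less of 0, against 19% lower (edgeR; also 0 lower at an unadjusted p under 0.05, in DESeq2 and in limma-voom). AURKA rose 2.66-fold (log2 fold change 1.41, SE 0.16, adjusted p = 9.89e-04), TTK 2.33-fold (1.22, SE 0.27, adjusted p = 0.0123), BUB1B 1.98-fold (0.99, SE 0.18, adjusted p = 0.00617) and AURKB 1.95-fold (0.97, SE 0.27, adjusted p = 0.0275). PLK2 and PLK3, described further on, were the others. In none of these did the 2 groups overlap, and neither did they for PLK1, which was not called in this fit. The share of all tested genes without overlap was not counted, so the lack of overlap adds nothing to the calls. PLK1 stood at 0.64 (SE 0.24) with an adjusted p of 0.0747, or of 0.00375 under the replicate block. It also passed in DESeq2 (adjusted p = 0.0371) and without the filter (0.00405), and not in the other fits of all 8 libraries. BUB1 stood at 0.48 (SE 0.29) with an adjusted p of 0.228, or of 0.0207 under the block. PLK4 stood at 0.18 (SE 0.24, adjusted p = 0.581) and NEK2 at -0.07 (SE 0.21, adjusted p = 0.798). The median of the 10 was 0.98, and over all genes it was -0.013. Cell type markers moved in the same libraries, both those of epithelium, the type of A549 itself, and those of other types. The summed epithelial markers went from 6031 to 19275 CPM of total counts at P15 and from 4890 to 15860 at P3, with 4 of 5 tested called higher, and the summed fibroblast markers from 15.7 to 44.2 and from 13.8 to 95.4, with 2 of 3 tested called higher, while the defining fibroblast marker DCN stayed at 0.0833 CPM or less. Of 3 tested blood markers 2 were called higher and 1 lower, with PTPRC near 0 as given. The part of these markers, or of the higher mitochondrial share, in the rises was not tested.

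The size of these rises was uneven within the kinases that are low in both hairpin groups. At P15 the ratio of AXL shRNA to control shRNA was 2.77 for AURKA, 2.08 for BUB1B, 1.98 for TTK, 1.63 for PLK1, 1.56 for AURKB, 1.33 for BUB1, 0.994 for PLK4 and 0.92 for NEK2. At P3 it was 2.57, 1.89, 2.65, 1.51, 2.29, 1.44, 1.29 and 0.972 in the same order. AURKA, BUB1B and TTK were about 2-fold or more at both numbers, and NEK2 was below 1 at both. All 8 remained under the control level. On log2(TPM + 1), where the median of all genes moved by -0.13 and the share of called genes that were higher went from 49.4% to 31.3%, AURKB stood at 0.62 (adjusted p = 0.122) and TTK at 0.70 (adjusted p = 0.0896), and PLK4 turned to -0.00855. Without control shRNA P15, control shRNA P3 or AXL shRNA P3, AURKB had an adjusted p of 0.121, 0.0805 and 0.143, and TTK 0.0659, 0.0507 and 0.0647. The adjusted p of AURKB was also above the threshold in limma-voom (0.0673, with 5 of the kinases higher in place of 6), on total counts (0.0562) and with the 4 libraries alone (0.0759).

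The difference between both effects was itself tested, as the effect of AXL shRNA minus that of TP-0903. It was higher for 9 of the 10 kinases, against 10.8% of all genes, and lower for 0, against 9.82% (also 0 at an unadjusted p under 0.05, in DESeq2 and in limma-voom). The values were largest for AURKB (4.14, SE 0.38, adjusted p = 0.00136, edgeR) and TTK (4.12, SE 0.39, adjusted p = 0.00143), and PLK3 did not pass (0.18, SE 0.26, adjusted p = 0.667). The effects start from unlike levels, since PLK1 for example averaged 8.09 ± 2.05 CPM in control shRNA and 119.7 ± 28.4 CPM in control cells.

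The hairpin groups were also set against TP-0903 directly. AXL shRNA was above TP-0903 for 4 kinases, against 15% of all genes, and below for 0, against 15.1% (1 at an unadjusted p under 0.05, NEK2, 0 in DESeq2 and in limma-voom, and NEK2 called in the alternatives named for it): AURKA (0.79, SE 0.15, adjusted p = 0.00958), PLK4 (0.89, SE 0.25, adjusted p = 0.0332), BUB1B (0.71, SE 0.18, adjusted p = 0.0256) and PLK2 (0.73, SE 0.14, adjusted p = 0.00846). This count was 2 without AXL shRNA P15 or without AXL shRNA P3, 1 without TP-0903 P17 and 0 without TP-0903 P4. Control shRNA was below TP-0903 for 3 kinases, against 9.4%, and above for 0, against 9.39% (1 at an unadjusted p under 0.05, PLK4, 0 in DESeq2 and in limma-voom, and PLK4 called without the filter): PLK1 (-0.99, SE 0.24, adjusted p = 0.0324), AURKA (-0.63, SE 0.16, adjusted p = 0.0339) and PLK3 (-1.10, SE 0.19, adjusted p = 0.0122). That count fell to 0 without control shRNA P15, control shRNA P3 or TP-0903 P17, and to 1 without TP-0903 P4.

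PLK2 (minus strand of chromosome 5, 58453982 to 58460260) had the highest TPM of the 10 in each of the 4 groups. It acts in centriole duplication and in synapses and is induced by growth signals. Its CPM were 268 (P17) and 247 (P4) in control cells, 243 (P15) and 280 (P3) with control shRNA, 389 (P17) and 322 (P4) with TP-0903, and 572 (P15) and 606 (P3) with AXL shRNA. Control and control shRNA overlapped (0.02, SE 0.14, adjusted p = 0.937, edgeR), and the other groups stood above them without overlap. PLK2 rose 2.25-fold with AXL shRNA against control shRNA (1.17, SE 0.14, adjusted p = 0.00118). With TP-0903 it stood at 0.47 (SE 0.14, adjusted p = 0.0722), at 1.45 times the control library for P17 and 1.30 times for P4. This rise passed with the replicate block (0.46, adjusted p = 0.0146), in DESeq2 (0.0169) and without the filter (0.0369). It also passed on log2 TPM with pseudocounts of 1 (0.0426) and 0.1 (0.0436), and not in the other fits of all 8 libraries.

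PLK3 (plus strand of chromosome 1, 44800225 to 44805990), a kinase of stress and DNA damage responses, had the lowest TPM of the 10 in control cells (8.16 ± 0.19) and the third highest in each of the other groups. Its CPM were 7.79 (P17) and 9.42 (P4) in control cells, 9.63 (P15) and 10.4 (P3) with control shRNA, 24.6 and 18.4 with TP-0903, and 29.7 and 26.9 with AXL shRNA. The libraries fell into a low pair of groups, control and control shRNA, and a high pair, TP-0903 and AXL shRNA. PLK3 rose 2.5-fold with TP-0903 (1.32, SE 0.19, adjusted p = 0.00594, edgeR) and 2.83-fold with AXL shRNA (1.5, SE 0.19, adjusted p = 0.00137), and the difference of both effects did not pass the test, as given above. From control to control shRNA it stood at 0.22 (SE 0.19, adjusted p = 0.496). Without control P17 the adjusted p of the rise with TP-0903 was 0.0542, at 1.20.

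**Figure D3:**
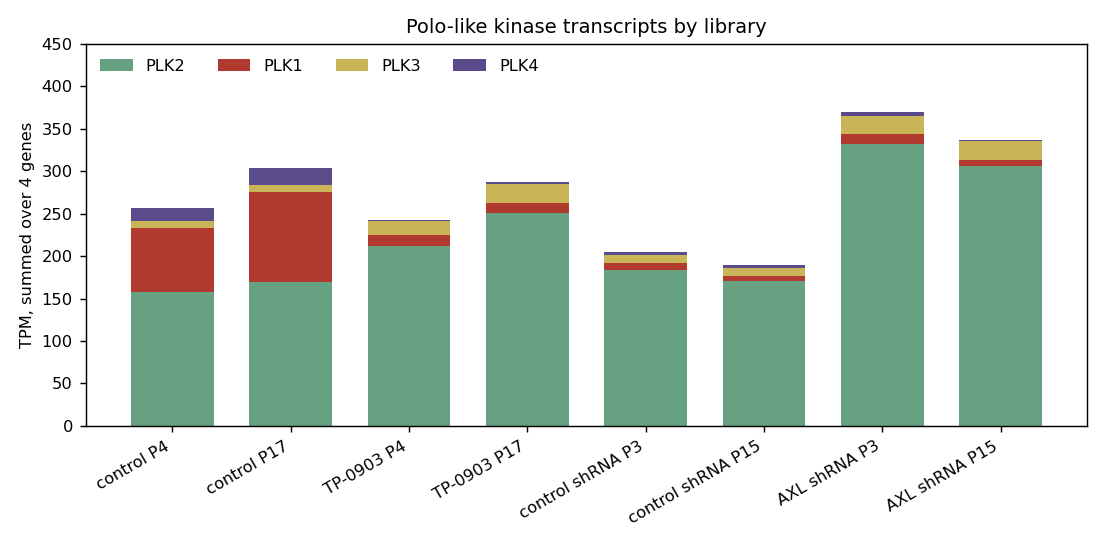
TPM of PLK2, PLK1, PLK3 and PLK4 stacked for each library. PLK1 makes up 35.0% and 29.5% of the sum in control P17 and P4 and between 2.07% and 5.29% in the other 6 libraries.

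The makeup of the Polo-like family differed between control cells and the other groups. The summed TPM of the 4 genes ran from 189 (control shRNA P15) to 370 (AXL shRNA P3), with 304 and 257 in control P17 and P4. PLK2 took 55.8% (P17) and 61.5% (P4) of that sum in control cells and between 87.1% and 90.8% in the other libraries. The TPM of PLK2 was 1.60 and 2.08 times that of PLK1 in control cells, 20.3 and 16.5 times with TP-0903, 29.4 (P15) and 24.9 times (P3) with control shRNA, and 43.9 and 30.4 times with AXL shRNA. PLK3 lay below PLK1 in both control libraries, at 0.0781 and 0.106 of its TPM, and above it in the other 6, at 1.34 to 3.13 times.

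Leaving out PLK2 and PLK3, which is a choice made after their values were seen, the TPM of the other 8 summed to 487 (P17) and 369 (P4) in control cells and to 43.0 to 84.4 elsewhere. Their order in control cells was AURKA (104 ± 17.8), PLK1 (91.0 ± 21.5), AURKB (88.8 ± 17.6), NEK2 (43.1 ± 8.56), BUB1B (31.3 ± 6.82), BUB1 (30.7 ± 1.73), TTK (21.4 ± 5.75) and PLK4 (17.4 ± 3.38). Within this order the means of AURKA, PLK1 and AURKB differed by less than their SDs, as did those of BUB1B and BUB1. AURKA was again first of these 8 in the other 3 groups. In TP-0903 cells PLK4 was the lowest at 1.60 ± 0.35 TPM, and in control shRNA cells TTK was, at 2.06 ± 0.08 TPM.

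The deposited effective length, which averages over the isoforms that the quantification found, was steady for most of the kinases. The ratio of the longest to the shortest of 8 libraries was 1.06 for AURKA, 1.07 for BUB1 and PLK2, and 1.26 at most for 8 of the 10. TTK was the widest, at 1.87: it had 1501 bases in TP-0903 P4 and 2503 to 2809 bases in the other 7 libraries. Expected counts of TTK in that library were 170, close to 184 in TP-0903 P17, while its TPM was 4.55 against 2.81. PLK4 spanned 1.78, from 1634 bases in AXL shRNA P3 to 2904 bases in AXL shRNA P15, with 251 and 166 expected counts. In TPM these genes carry that difference, and in CPM they do not.

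Across the 8 libraries the log2 CPM of the 8 kinases that fell correlated with one another at 0.868 to 0.994 (28 pairs), and with PLK2 or PLK3 at -0.628 to -0.0345 (16 pairs). These values describe 8 libraries in 2 clusters, the 2 control libraries against the rest, and carry no test. Among 11299 other genes averaging 5 CPM or more, the nearest pattern to each kinase by Pearson's r over 8 libraries was TTF2 for AURKA (0.993), KIF18B for AURKB (0.998), PBK for PLK1 (0.996), HMGB2 for PLK4 (0.998), ERCC6L for TTK (0.998), PARPBP for BUB1 (0.991), CDC20 for BUB1B (0.994) and KIF4A for NEK2 (0.997). For PLK2 it was HGS (0.991) and for PLK3 it was RHBDL2 (0.992).

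Partners and regulators from 8 lists were counted in the same fit, beside shares over all genes of 4.9% higher and 6.35% lower with TP-0903, 3.06% and 6.09% from control to control shRNA, and 18.5% and 19% with AXL shRNA. Of 8 tested partners of the Aurora kinases, 6 fell and 0 rose with TP-0903, and 6 fell and 1 rose (NEDD9) from control to control shRNA. BIRC5, the survivin subunit of the passenger complex, stood at 160 (P17) and 122 CPM (P4) in control cells and at 24.1 and 17.7 CPM with TP-0903 (-2.75, SE 0.25, adjusted p = 0.00115), and at 11.4 (P15) and 14.4 CPM (P3) with control shRNA. TPX2, which activates AURKA on the spindle, fell by 2.17 (SE 0.21, adjusted p = 0.00123) with TP-0903 and rose by 0.94 (SE 0.20, adjusted p = 0.0108) with AXL shRNA against control shRNA. With AXL shRNA 3 of these 8 rose and 0 fell, and the passenger subunit CDCA8 rose by 1.63 (SE 0.31, adjusted p = 0.00667) while BIRC5 stood at 0.19 (SE 0.25, adjusted p = 0.579).

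Of 19 spindle checkpoint and kinetochore partners, 14 fell and 0 rose with TP-0903 (median -2.39), 16 fell and 0 rose from control to control shRNA (median -2.41), and 6 rose and 0 fell with AXL shRNA (median 0.36). KNTC1, a subunit that recruits dynein and checkpoint proteins, fell by 2.39 (SE 0.15, adjusted p = 4.7e-04, edgeR) with TP-0903. TRIP13, the ATPase that remodels the MAD2 checkpoint protein, rose by 1.49 (SE 0.25, adjusted p = 0.00439) with AXL shRNA. Of 14 partners of the Polo-like kinases and centriole genes, 13 fell with TP-0903 and 12 from control to control shRNA, with 0 higher in each, and PRC1, which bundles the central spindle, had log2 fold changes of -2.74 (SE 0.20, adjusted p = 5.62e-04) and -3.03 (SE 0.20, adjusted p = 7.33e-04). With AXL shRNA 6 of these rose and 2 fell.

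Of 20 other cell cycle kinases, 12 fell and 1 rose with TP-0903, 11 fell and 1 rose from control to control shRNA, and 5 rose and 4 fell with AXL shRNA (25% and 20%, near the shares over all genes). CDK1, the kinase of mitotic entry, stood at 149 and 105 CPM in control cells and at 16.2 and 16.3 CPM with TP-0903 (-2.97, SE 0.18, adjusted p = 4.7e-04, edgeR). NEK6, which is related to NEK2 and acts on spindle motors, rose by 1.76 (SE 0.14, adjusted p = 4.36e-04) with AXL shRNA and was the 1 of these kinases that rose with TP-0903. Of 16 phosphatase genes 2 fell with TP-0903 and 3 from control to control shRNA, and none of the 16 rose in either; with AXL shRNA 5 rose and 3 fell. The CDK-activating phosphatase CDC25A stood at 3.14 (P15) and 2.57 CPM (P3) in control shRNA libraries and at 25.6 and 37.3 CPM in AXL shRNA libraries (3.46, SE 0.28, adjusted p = 4.13e-04), beside 23.0 (P17) and 15.8 CPM (P4) in control cells. AXL shRNA minus control gave 0.70 for CDC25A (SE 0.25, adjusted p = 0.0613), which did not pass.

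Of 19 genes of the anaphase-promoting complex and its ubiquitin enzymes, 7 fell with TP-0903 and 8 from control to control shRNA, with 0 higher in both, and 3 rose and 6 fell with AXL shRNA (15.8% and 31.6%). CDC20, the mitotic activator of that complex, stood at 120 and 74.9 CPM in control cells and at 7.47 (P15) and 9.19 CPM (P3) in control shRNA libraries (-3.54, SE 0.27, adjusted p = 7.33e-04, edgeR). Of 18 genes listed as transcription factors of G2 and M genes or as subunits of their complexes, 10 fell with TP-0903. From control to control shRNA 9 fell, with 0 higher in both. MYBL2, the B-Myb factor of the complex that activates such genes, stood at 106 and 83.1 CPM in control cells, 8.83 and 7.24 CPM with TP-0903, and 12.1 and 12.6 CPM with control shRNA. With AXL shRNA MYBL2 was at 8.12 and 13.3 CPM (-0.21, SE 0.24, adjusted p = 0.537), and 1 of the 18 genes rose (E2F7) while 6 fell.

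Immediate early genes, which respond to serum and stress as PLK2 and PLK3 can, were also counted. Of 17 immediate early genes 1 rose with TP-0903 (FOSL1, 1.51, SE 0.38, adjusted p = 0.0447), 4 rose from control to control shRNA, where PLK2 and PLK3 did not pass, and 8 rose and 1 fell with AXL shRNA. KLF4, a transcription factor of this list, rose by 1.60 (SE 0.26, adjusted p = 0.0134, edgeR) from control to control shRNA, and MYC, a growth-promoting factor, rose by 1.23 (SE 0.20, adjusted p = 0.00352) with AXL shRNA. Whether these genes and both kinases share a cause was not tested.

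**Figure D4:**
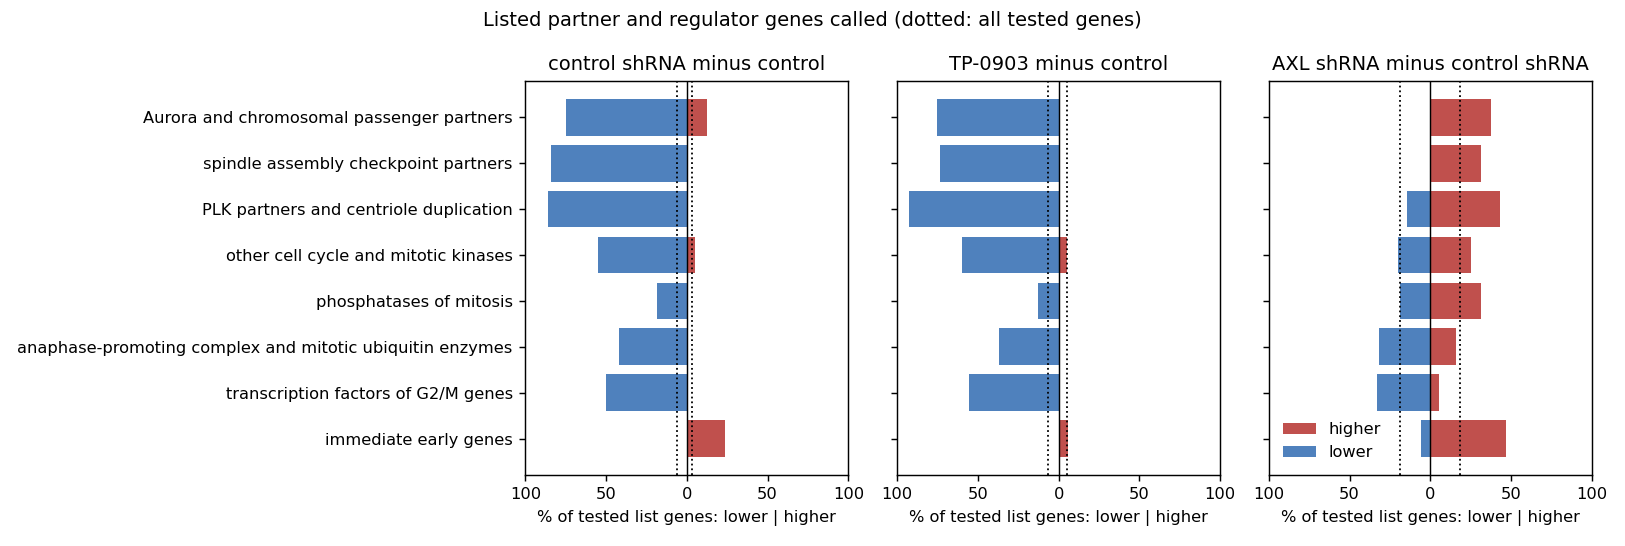
Share of tested genes of each of the 8 lists that were called lower (left of 0) or higher (right of 0) in 3 comparisons, with dotted lines at the shares over all tested genes (6.09% and 3.06% in the left panel). Of the Polo-like kinase partners 13 of 14 were lower with TP-0903, and of the immediate early genes 8 of 17 were higher with AXL shRNA.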

How the data were processed

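Gene expression was measured by RNA sequencing of total RNA in 8 A549 libraries. Per the submitters' processing notes, STAR (2.5.3a), RSEM and build GRCh38 were used (RSEM version and annotation: not given in the sources used here). Expected counts, as deposited, are estimated reads per gene without normalization. In the deposited TPM values the authors had scaled for length and depth within each library, per the file headers, as were the deposited FPKM values, which were not used. Deposited effective lengths are in bases (other unit). Positions came from GENCODE release 29, promoter sequences from RefSeq (GRCh38.p14).

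Expected counts were rounded and kept where edgeR's filterByExpr passed them. After TMM scaling, 1 quasi-likelihood model in edgeR (4.0.16) held all 8 libraries with a term per group (prior degrees of freedom 3.33). All 6 pairs of groups and the difference of effects were tested, two-sided, with Benjamini-Hochberg adjustment over 17676 genes. SE is the log2 fold change divided by the square root of F. The code was tested on simulated data. No strand is stated for the libraries. Overlapping genes and named pseudogenes held at most 2.43% of a member's counts. Replicates differed beyond counting error in 50.7% to 56.9% of genes.

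The P number was checked as a pairing. Deviations from group means correlated across genes at 0.559 (hairpin groups) and 0.626 (plain groups) where numbers are shared and at 0.177 to 0.380 otherwise, so the 4 numbers were taken as pairs, and the blocked value is printed where it changes a call. The members and lists were chosen with earlier results of these data known. Named genes were the members, up to 2 genes of smallest p per list and comparison (of TP-0903 and control shRNA against control, and AXL shRNA against control shRNA), and the nearest pattern to each member. NEDD9, outside that rule, was named after its values were seen. Results of 1 further list are not reported here. Alternatives were other scalings and filters, DESeq2 (1.42.0), limma (3.58.1) on voom values or on log2 TPM with pseudocounts of 1 and 0.1, length offsets, the P number as a term, the 4 libraries of a comparison alone, and each library left out.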

Additional observations from a re-analysis of the deposited data

Results flagged for a closer look

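For 9 of the 10 kinases the effect of AXL shRNA (against control shRNA) differed from the effect of TP-0903 (against control) in the interaction test of the shared edgeR fit. The differences in log2 units were 3.66 for AURKA, 4.14 for AURKB, 3.54 for PLK1, 3.56 for PLK4, 4.12 for TTK, 3.06 for BUB1, 3.87 for BUB1B and 2.57 for NEK2, with adjusted p from 8.51e-04 to 0.00389. For these 8 the drug value was a fall, and the hairpin value was a rise in 4, while PLK1, PLK4, BUB1 and NEK2 did not pass against control shRNA in that fit. PLK1 and BUB1 passed there under the replicate block, and PLK1 also in DESeq2 and without the filter. Both effects start from unlike levels, since control shRNA minus control stood at -3.89 to -2.67 for these 8. The interaction value contains this gap, in which hairpin and P number cannot be told apart. Set against TP-0903 directly, AXL shRNA stood at -0.58 to 0.89 for the same 8. PLK2 differed by 0.71 (SE 0.19, adjusted p = 0.0414), with both effects upward. For PLK2 the difference was 0.56 to 0.84 in the 8 fits that left out a library, and its call was lost in each of them. With all 8 libraries its adjusted p was above the threshold in edgeR on total counts (0.0634) and with length offsets (0.108). It was also above the threshold in limma on log2 TPM, with pseudocounts of 1 (0.35, adjusted p = 0.168) and 0.1 (0.36, adjusted p = 0.176).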

How the results depend on the processing

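The falls of 8 kinases with TP-0903, from control to control shRNA and from control to AXL shRNA kept their direction and call under all alternatives run. Of 1280 alternative values of the members, 1183 kept both, 62 lost the call, 20 gained it and 15 changed sign. The values that changed sign lay between -0.33 and 0.0844. PLK4 with AXL shRNA went to -0.0149 on total counts, and to -0.00855 and -0.0339 on log2 TPM with pseudocounts of 1 and 0.1. NEK2 with AXL shRNA went to 0.0844 without AXL shRNA P15 and 0.0622 without control shRNA P3 (down to -0.26 with another library left out). PLK2 from control to control shRNA went to -0.0844 without control shRNA P3 and -0.0257 without control P4 (up to 0.13). AURKB in AXL shRNA minus TP-0903 went to -0.0545 without AXL shRNA P3 (up to 0.67). BUB1 in the same comparison stood at 0.098 in the main fit. It went to -0.13 and -0.16 on TPM, -0.33 without AXL shRNA P3 and -0.0483 without TP-0903 P17 (up to 0.42). PLK3 in the difference of effects went to -0.11 and -0.13 on TPM and -0.0357 without TP-0903 P4 (up to 0.39). AXL turned to -0.0636 for TP-0903 without TP-0903 P17 (up to 1.06) and to 0.10 for control shRNA minus control without control P17 (down to -0.94). The cause was not tested.

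Counts of called members moved by over 1.5 times in both comparisons of hairpin cells with TP-0903. AXL shRNA minus TP-0903 had 4, with 2 under limma-voom and 0 to 4 with a library left out. Control shRNA minus TP-0903 had 3, with 6 without the filter, 1 under limma-voom, 1 with its 4 libraries alone and 0 to 3 with a library left out. With the replicate block the members called were 8 with AXL shRNA, 10 with TP-0903 and 9 for the difference of effects, and the block changed no calls of these comparisons other than those of PLK1 and BUB1 with AXL shRNA and PLK2 with TP-0903, besides AXL itself. No block could be fitted for the other comparisons, which share no number. Counts over all genes also moved: with TP-0903 from 1989 to 4647 with the block, 3515 without the filter, 3340 with the P number as a term, and 489 to 1089 without a library of that comparison, and for control shRNA minus control from 1618 to 3352 without the filter, 2746 in DESeq2, 2968 with the P number as a term, 743 with 4 libraries alone and 343 to 1010 with 1 of several libraries left out. Total counts as the scaling moved the median gene by -0.20 with AXL shRNA.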
